A study of Mus musculus with 28 samples.

Results

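The proteasome genes of mouse regulatory T cells (Tregs) were examined: the genes for the subunits, activators and assembly chaperones of the complex that degrades ubiquitin-tagged proteins. They were the rows of the deposited expression table whose gene symbol begins with Psma, Psmb, Psmc, Psmd, Psme, Psmf or Psmg followed by a number. This gave 39 of the 13103 genes. Psmc3ip, which bears the name of Psmc3 but encodes a cofactor of meiotic recombination, is no subunit and was kept apart, which leaves 38 proteasome genes. All 38 passed the filter on low values. Of 48 names on the subunit list, 10 were not analysed here: Psma2, Psma8, Psmb1, Psmb4, Psmb7, Psmb8, Psmc6, Psmd13, Psme1 and Psmg1.

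The Tregs were GFP-positive cells of Foxp3-GFP mice, a reporter strain in which green fluorescent protein marks cells that express Foxp3, the transcription factor that defines Tregs. All mice had received B16 cells, a mouse melanoma line, into the skin, and their tumors and spleens were taken 7 to 10 days later, so the spleens too came from tumor-bearing animals. Per the labels, cells stained for CD45, CD3, CD4 and OX40 were sorted into those with high OX40 (OX40plus) and those with low OX40 (OX40minus). OX40, a member of the TNF receptor family, gives T cells a costimulatory signal. There were 4 samples each of tumor OX40plus and tumor OX40minus Tregs, and 3 each of spleen OX40plus and spleen OX40minus Tregs, every sample being 1 mouse and gate and the mean of 2 libraries. The labels do not give age or sex. Because each sample is a bulk of sorted cells, fewer cells of a type and less RNA per cell cannot be told apart.

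The proteasome is a barrel, the 20S core, closed by caps. Alpha subunits (Psma) form the outer rings and gate the entrance, and beta subunits (Psmb) form the inner rings, in which Psmb5, Psmb6 and Psmb7 cut the protein chain. The 19S cap recognises ubiquitin, removes it and feeds the unfolded protein into the core, using a ring of ATPases (Psmc) and a set of non-ATPase subunits (Psmd). In lymphocytes and in cells exposed to interferon gamma, Psmb8, Psmb9 and Psmb10 take the places of Psmb5, Psmb6 and Psmb7 and form the immunoproteasome, which favours peptides that fit MHC class I molecules. Psme1 and Psme2 form PA28, an interferon-induced cap that opens the core without ubiquitin. Of the classes, the table held 6 alpha subunits, 4 constitutive beta subunits, 5 ATPases and 10 non-ATPase subunits, together the 25 constitutive 26S subunits, and also Psmb9, Psmb10 and Psme2, 3 other activators or inhibitors, 6 assembly chaperones and the thymus subunit Psmb11.

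The promoters of 4 members are shown because they belong to the genes whose levels parted in the results: Psmb6, a constitutive catalytic subunit; Psmc2, an ATPase; Psmb9, which takes the place of Psmb6 in the immunoproteasome; and Psmb10. Each window runs from 250 bases before to 50 bases after the transcription start in RefSeq (GRCm38.p6), 5′ to 3′ on the gene's own strand. Capitals mark matches to the motifs searched.
Psmb6: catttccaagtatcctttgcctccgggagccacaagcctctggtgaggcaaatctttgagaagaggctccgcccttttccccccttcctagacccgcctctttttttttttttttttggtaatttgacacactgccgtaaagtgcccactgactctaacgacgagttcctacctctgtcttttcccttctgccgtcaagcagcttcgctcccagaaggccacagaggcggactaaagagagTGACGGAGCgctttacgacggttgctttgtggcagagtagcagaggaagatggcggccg
Psmc2: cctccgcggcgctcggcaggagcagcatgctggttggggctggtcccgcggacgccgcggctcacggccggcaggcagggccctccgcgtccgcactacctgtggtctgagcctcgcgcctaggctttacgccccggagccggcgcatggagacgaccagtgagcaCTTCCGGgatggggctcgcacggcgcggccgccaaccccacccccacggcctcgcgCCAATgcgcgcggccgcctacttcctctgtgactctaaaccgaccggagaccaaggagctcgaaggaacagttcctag
Psmb9: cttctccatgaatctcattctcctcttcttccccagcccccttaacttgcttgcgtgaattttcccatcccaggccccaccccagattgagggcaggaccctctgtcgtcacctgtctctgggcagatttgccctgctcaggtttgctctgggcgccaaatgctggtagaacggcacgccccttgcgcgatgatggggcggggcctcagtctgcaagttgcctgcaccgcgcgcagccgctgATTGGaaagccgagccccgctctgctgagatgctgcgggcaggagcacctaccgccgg
Psmb10: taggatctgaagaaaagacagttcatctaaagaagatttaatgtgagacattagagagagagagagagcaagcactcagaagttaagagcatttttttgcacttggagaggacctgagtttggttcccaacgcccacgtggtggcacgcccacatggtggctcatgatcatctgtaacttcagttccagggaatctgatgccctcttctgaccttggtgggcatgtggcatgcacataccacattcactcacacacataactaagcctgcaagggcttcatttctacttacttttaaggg
The Psmb6 window lies at chr11:70525107-70525406, plus strand, and its capitals match the antioxidant response element, the motif of the NRF1 and NRF2 factors, 9 bases before the start. The Psmc2 window, 1 of its 2 starts in RefSeq, lies at chr5:21785025-21785324, plus strand, with an ETS motif and a CCAAT box. The Psmb9 window lies at chr17:34187281-34187580, minus strand, with a CCAAT box read on the other strand. The Psmb10 window lies at chr8:105938343-105938642, minus strand, and none of the letters searched are in it.

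Motifs were searched on both strands in the 36 windows of the 33 members that RefSeq's promoter table holds. The ETS core CCGGAAG was found in 33.3% of member windows, against 8.86% of all 32851 windows and 11.6% of the 21263 windows of coding genes. It was found in 11 genes, of which 7 encode 19S subunits: Psmc1, Psmc2, Psmd2, Psmd4, Psmd6, Psmd11, Psmd12, Psma6, Psme3, Psme4 and Psmg3. The antioxidant response element TGACNNNGC was found in 13.9% of member windows and 12.4% of all windows, and the CCAAT box (CCAAT) in 36.1% and 37.4%. The interferon-stimulated response element, searched as GAAA, any 2 bases and GAAA, was found in 11.1% of member windows (Psmb3, Psmd4, Psmd9 and Psmg4) and 3.44% of all windows. Matches to different motifs may share bases and were counted for each. A match is a run of letters and no measured binding.

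Values are CPM, counts scaled to the library total and not to gene length, so levels are compared between groups and not between genes. Each sample held 22.4 M to 29.7 M estimated counts, at which 3 counts equal 0.104 to 0.13 CPM. Psmb11, at 0.545 to 2.02 CPM, was the only proteasome gene near that limit. The T cell and Treg markers Cd3e, Cd3g, Cd4, Foxp3, Il2ra and Ikzf2 summed to 3087 to 4611 CPM per sample. Macrophage markers, of which 9 of 11 were in the table, summed to 739 to 942 CPM in spleen OX40minus, 82 to 197 in spleen OX40plus, 221 to 333 in tumor OX40minus and 51.9 to 65.7 in tumor OX40plus samples. Dendritic cell markers (5 of 6 in the table) summed to 42.1 to 48.5 CPM in spleen OX40minus, 14.01 to 18.6 in spleen OX40plus, 128 to 190 in tumor OX40minus and 36.8 to 65.3 in tumor OX40plus samples. NK cell markers (5 of 5) summed to 18.3 to 20.2, 14.5 to 22.6, 29.8 to 46.2 and 8.77 to 17.0 CPM in these groups, with Eomes at 0 in every tumor OX40plus sample. B cell markers summed to 277 to 406 CPM in spleen samples and 0.321 to 3.7 in tumor samples. Melanoma markers summed to 12.6 to 22.4 CPM in spleen and 68.4 to 181 in tumor samples. The part of these markers in the results below was not tested except where a value is given.

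The 38 proteasome genes together were lowest in spleen Tregs and highest in tumor OX40plus Tregs. Their summed level was 4444, 3864 and 3455 CPM in spleen OX40minus samples of mice 1 to 3 and 3959, 3876 and 4573 CPM in spleen OX40plus samples. It was 7242, 7183, 7582 and 7036 CPM in tumor OX40minus samples of mice 1 to 4 and 9343, 9610, 10476 and 11401 CPM in tumor OX40plus samples. The spleen groups overlapped, every tumor sample lay above every spleen sample, and every tumor OX40plus sample lay above every tumor OX40minus sample. The 25 constitutive 26S subunits had a median log2 deviation from each gene's mean over groups of 0.75 to 1.08 in tumor OX40plus, 0.31 to 0.39 in tumor OX40minus and −0.82 to −0.38 in spleen samples. The same median over all genes lay between −0.08 and 0.06.

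**Figure D1:**
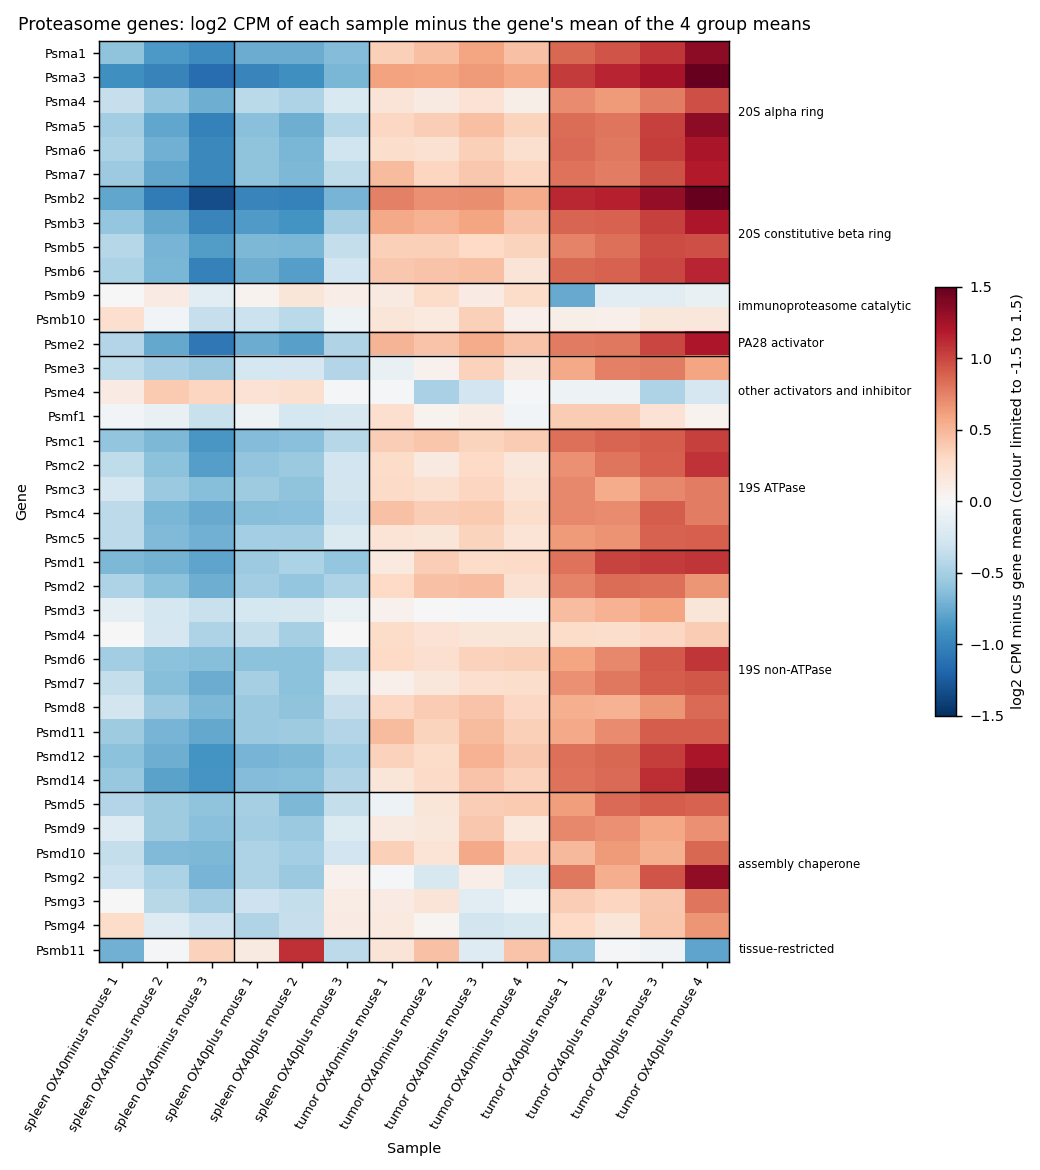
Log2 CPM of each of the 38 proteasome genes (rows, by class) in each of the 14 samples (columns, by group), minus the gene's mean over the 4 group means. Most rows run from blue in spleen samples to dark red in tumor OX40plus samples, and Psmb9, Psmb10, Psme4 and Psmb11 do not. The range is smaller in some rows, such as Psmd4, Psmf1 and Psmg4.

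In tumors, OX40plus Tregs had higher levels of nearly the whole constitutive proteasome than OX40minus Tregs. The comparison asks how Tregs with high OX40 differ from those with low OX40 inside the tumor. Of 38 proteasome genes, 31 rose, 1 fell and 6 did not pass the test, which is limma's moderated test with Benjamini-Hochberg adjustment over the 12509 genes tested, called at an adjusted p under 0.05. Over all genes, 18.6% rose and 20% fell. The median log2 fold change of the 38 was 0.53, against −0.07 over all genes tested. The 31 genes that rose, and the 1 that fell, also had no overlap between the 4 OX40plus and the 4 OX40minus samples, which held for 16.7% (higher) and 16.2% (lower) of all genes.

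All 6 alpha subunits rose, with log2 fold changes of 0.55 to 0.70. Psma6 had the highest of these at 0.70 ± 0.12 (SE), adjusted p = 0.000212. Psma6 was at 197, 194, 212 and 194 CPM in tumor OX40minus samples and 297, 286, 338 and 387 CPM in tumor OX40plus samples. All 4 constitutive beta subunits rose as well, by 0.47 to 0.61. Psmb2, a structural beta subunit, was at 273, 258, 262 and 237 CPM in OX40minus and 353, 361, 402 and 462 CPM in OX40plus samples, a log2 fold change of 0.61 ± 0.12 (adjusted p = 0.000758). The catalytic Psmb5, which carries the chymotrypsin-like activity, was at 202, 202, 194 and 199 CPM in OX40minus and 264, 280, 310 and 308 CPM in OX40plus samples, a change of 0.54 ± 0.097 (adjusted p = 0.000413). The catalytic Psmb6, which carries the caspase-like activity, was at 224, 226, 231 and 194 CPM in OX40minus and 306, 312, 337 and 374 CPM in OX40plus samples, a change of 0.60 ± 0.13 (adjusted p = 0.0015). In these 4 genes the lowest OX40plus sample was above the highest OX40minus sample. Annotated processed pseudogenes named after Psmb5 and Psmb6 exist, and reads from such near copies could be assigned to either, so the values of these 2 genes are uncertain to that extent.

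The 19S cap rose with the core. All 5 ATPases rose, by 0.41 to 0.65, and 9 of 10 non-ATPase subunits rose. Psmc2 was the highest ATPase by change, at 178, 162, 181 and 166 CPM in OX40minus and 236, 257, 273 and 313 CPM in OX40plus samples (0.65 ± 0.11, adjusted p = 0.000217). Psmd1, the large scaffold of the cap's base, was at 166, 193, 181 and 182 CPM in OX40minus and 263, 301, 311 and 316 CPM in OX40plus samples. Its change of 0.72 ± 0.077, a 1.65-fold higher level, had the smallest adjusted p among the 38 genes (3.57e-06). Psmd14, the deubiquitinase that removes ubiquitin chains as the substrate enters, rose by 0.72 ± 0.11 (adjusted p = 0.000133). Psmd4, a ubiquitin receptor of the cap, was the non-ATPase subunit that did not pass, at 232, 223, 217 and 218 CPM in OX40minus and 231, 230, 237 and 248 CPM in OX40plus samples (0.09 ± 0.11, 95% interval −0.14 to 0.32, adjusted p = 0.547). The Psmd4 samples of the groups overlapped, while every other 26S subunit was without overlap. Psmd8 rose by 0.28 only without the mouse as a block: adjusted p was 0.0319, and 0.0671 with the block. The Psmd8 call was also lost when 1 of 5 tumor samples was left out (OX40minus mouse 1, 2 or 4, OX40plus mouse 3 or 4), with adjusted p of up to 0.0911.

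Among the assembly chaperones, 5 of 6 rose. Psmg2, which pairs with Psmg1 to place the alpha ring, had the largest log2 fold change of all 38 genes at 0.99 ± 0.17 (adjusted p = 0.000294), with 33.3, 28.6, 36.3 and 29.4 CPM in OX40minus and 58.3, 49.5, 65.1 and 85.0 CPM in OX40plus samples. Psmd5, a chaperone of the ATPase ring, rose by 0.60 ± 0.11 (adjusted p = 0.000551), and Psmd9 by 0.45 ± 0.12 (adjusted p = 0.006). Psmg3 and Psmg4, which act together in alpha ring assembly, rose by 0.45 and 0.47, with adjusted p = 0.0354 and 0.0455. With the mouse as a block these became 0.0755 and 0.101. The Psmg3 call was lost without OX40minus mouse 3 or 4 or OX40plus mouse 3 or 4 in tumors, and the Psmg4 call in 9 of 14 such omissions, with adjusted p of up to 0.107 and 0.122. Psmd10, also known as gankyrin, did not pass (0.27 ± 0.12, adjusted p = 0.0844, and 0.0455 without tumor OX40minus mouse 3).

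**Figure D2:**
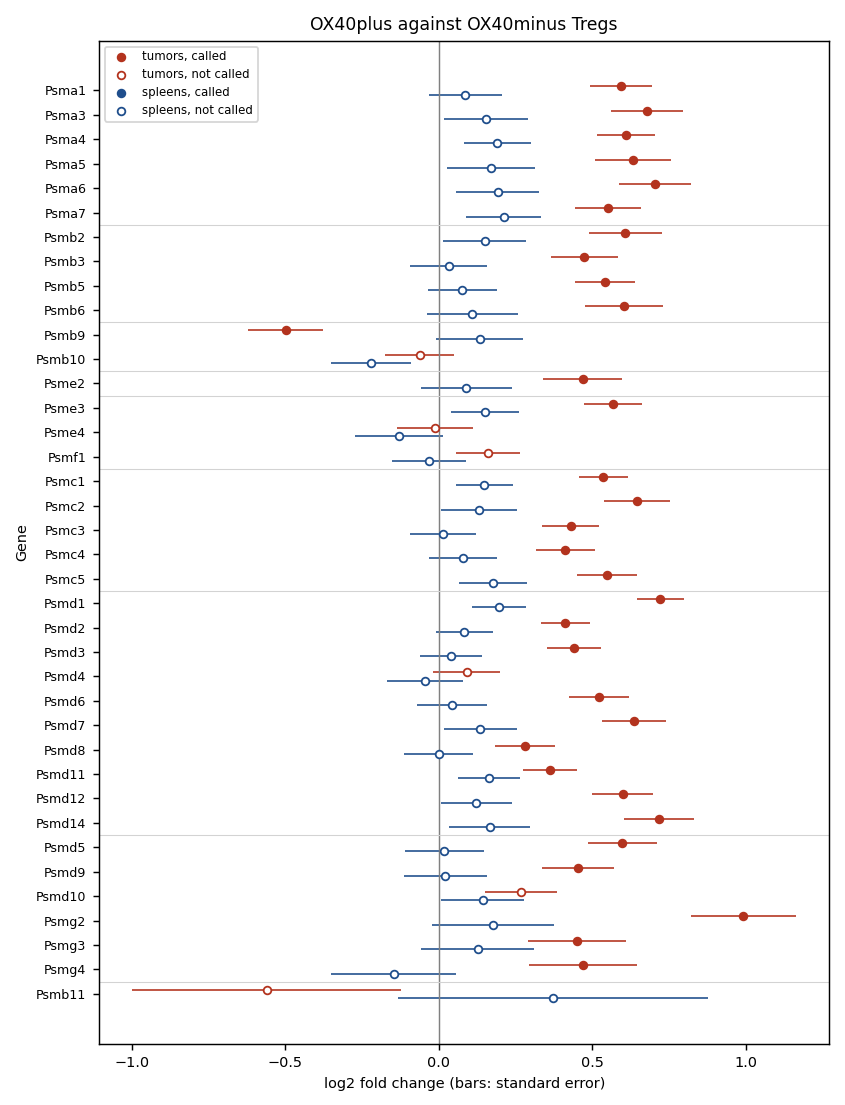
Log2 fold change of OX40plus against OX40minus Tregs for each of the 38 proteasome genes in tumors (red) and spleens (blue), with bars of 1 standard error and filled points for genes called at an adjusted p under 0.05. In tumors 31 filled points lie to the right and Psmb9 alone to the left, and no spleen point is filled.

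The immunoproteasome genes did not move as 1 group. Psmb9 was the 1 proteasome gene that fell in tumor OX40plus Tregs. It was at 131, 145, 131 and 144 CPM in tumor OX40minus samples of mice 1 to 4 and 71.1, 107, 106 and 111 CPM in tumor OX40plus samples. The log2 fold change was −0.50 ± 0.12 (95% interval −0.76 to −0.24, adjusted p = 0.00413), which is a level of 0.708 times that of OX40minus Tregs. All 4 OX40plus samples lay below all 4 OX40minus samples, and mouse 1 lay lowest. Without the OX40plus sample of mouse 1 the change was −0.35 with adjusted p = 0.00484. Psmb10 was at 255, 249, 289 and 237 CPM in OX40minus and 239, 237, 254 and 254 CPM in OX40plus samples, which overlapped (−0.06 ± 0.11, 95% interval −0.30 to 0.18, adjusted p = 0.701). Psme2, by contrast, rose with the constitutive subunits, from 674, 632, 691 and 633 CPM to 809, 815, 945 and 1096 CPM (0.47 ± 0.13, adjusted p = 0.00914). Psme2 has an intronless copy, Psme2b, whose reads could be assigned to it.

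Psmb9 (chr17:34181987-34187764, minus strand, GENCODE M21 on GRCm38) lies in the MHC region, beside Psmb8, Tap1 and Tap2. Its gene body overlaps that of Tap1 (chr17:34187553-34197225, plus strand), a peptide transporter subunit, by 212 bases where their 5′ ends meet. The sources used here do not say whether counting used strand, so reads there may belong to either gene. Tap1 itself had a change of −0.19 ± 0.094 in the tumor OX40 comparison and did not pass (adjusted p = 0.119). In all, 8 of the 39 rows overlap another coding gene in the annotation, among them Psmc3 (Slc39a13), Psmd1 (Htr2b), Psmd5 (Cutal) and Psmd9 (Hpd). Those partners lie on the other strand. Psmd1 also overlaps Gm21972, and Psmg3 overlaps Gm26938 by 2816 bases, each on its own strand. Counting by strand could not separate reads there. The part of such reads in the Psmd1 and Psmg3 values was not tested.

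**Figure D3:**
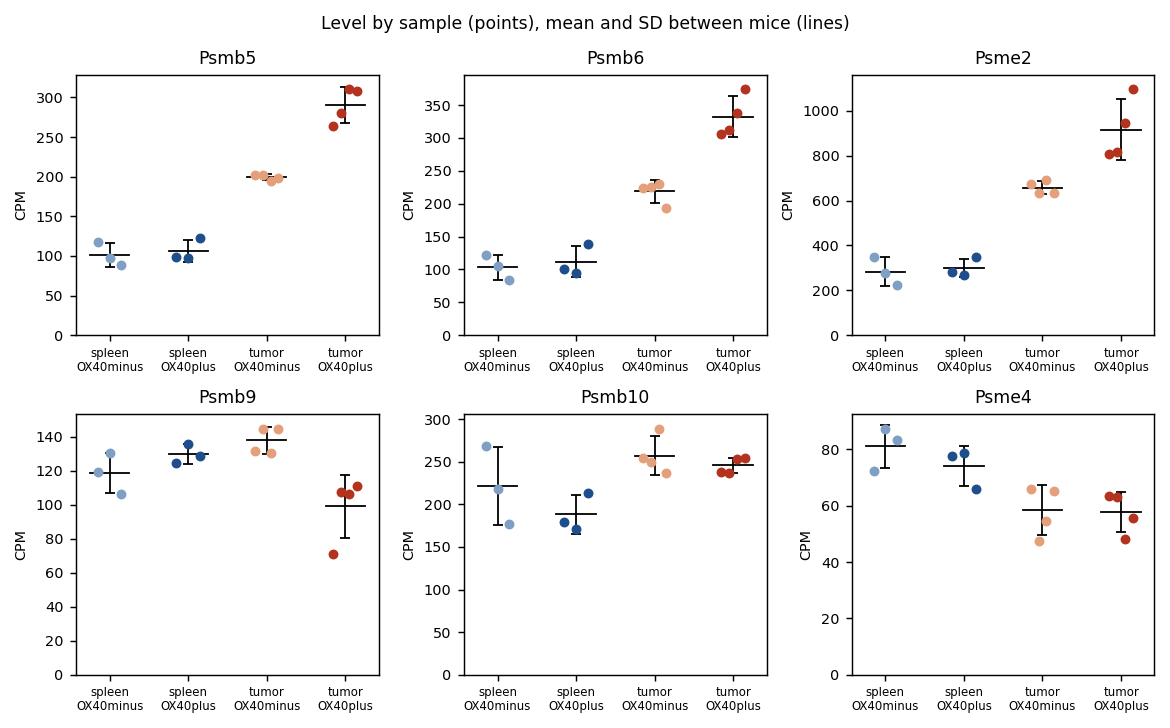
CPM of 6 proteasome genes in each sample (points) of the 4 groups, with the mean and SD between mice (lines) and each axis starting at 0. Psmb5, Psmb6 and Psme2 step up from spleen to tumor OX40minus and again to tumor OX40plus, Psmb9 is lowest in tumor OX40plus (71.1 to 111 CPM), Psmb10 overlaps between the tumor groups, and Psme4 is lower in tumors than in spleens.

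Set against its constitutive partner within each sample, Psmb9 parted further. A difference in this ratio is the change of Psmb9 minus that of Psmb6. In tumors it thus combines the fall and the rise given above and is no separate evidence on Psmb9. It also carries the uncertainty of the Psmb6 values. The log2 ratio of Psmb9 to Psmb6, in which the scaling of the library cancels, was −1.77 ± 0.24 (SD, n = 4) in tumor OX40plus, −0.66 ± 0.18 (n = 4) in tumor OX40minus, 0.23 ± 0.31 (n = 3) in spleen OX40plus and 0.21 ± 0.21 (n = 3) in spleen OX40minus samples. The ratio is of CPM and not of molecules, so only its difference between groups is read. Tumor OX40plus samples lay below tumor OX40minus samples without overlap, a difference of −1.10 with an exact two-sided permutation p of 0.0286, the smallest that 4 against 4 can give. The tumor groups lay below the spleen groups by a difference of −2.0 in OX40plus and −0.88 in OX40minus Tregs, each without overlap and with an exact permutation p of 0.0571, the smallest that 3 against 4 can give. The spleen groups differed by 0.02 (exact permutation p = 1). Adjusted over the 8 ratio comparisons made, the first 3 of these exact permutation p-values were 0.0762. With gates permuted within mice, as a block, the exact p in tumors was 0.125.

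Psmb10 takes the place of Psmb7, which was not analysed here, and was set against Psmb6 instead, a choice made after the data were seen. Its log2 ratio to Psmb6 was −0.43 ± 0.09 (SD, n = 4) in tumor OX40plus, 0.24 ± 0.09 (n = 4) in tumor OX40minus, 0.77 ± 0.12 (n = 3) in spleen OX40plus and 1.10 ± 0.04 (n = 3) in spleen OX40minus samples. No 2 groups overlapped in this ratio. Psmb10 itself overlapped between the tumor groups, so the tumor difference of the ratio is mostly the rise of Psmb6. The difference was −0.67 in tumors (exact permutation p = 0.0286, and 0.125 within mice) and −0.33 in spleens (exact permutation p = 0.1, the smallest that 3 against 3 can give). Between tissues it was −1.20 in OX40plus and −0.86 in OX40minus Tregs (exact permutation p = 0.0571 each). Adjusted over the 8 ratio comparisons, these exact permutation p-values were 0.0762 in tumors and between tissues and 0.114 in spleens.

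**Figure D4:**
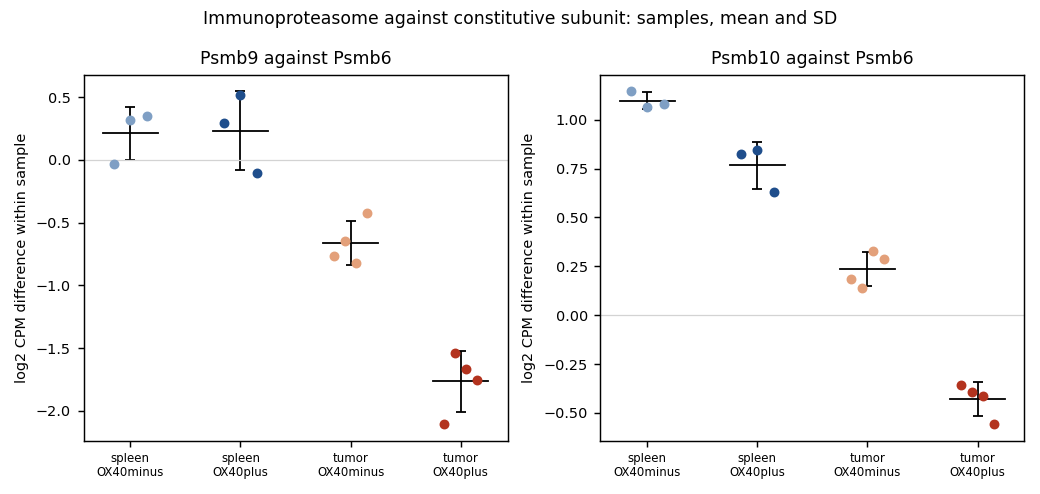
Log2 ratio of Psmb9 (left) and Psmb10 (right) to Psmb6 within each sample (points), with the mean and SD of each group (lines). Tumor OX40plus samples lie lowest in both panels, between −2.10 and −1.54 on the left and between −0.56 and −0.36 on the right.

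Of the remaining activators and the inhibitor, Psme3 was the 1 of 3 that rose. Psme3, the nuclear cap PA28 gamma, rose in tumor OX40plus Tregs from 184, 208, 253 and 219 CPM to 296, 335, 343 and 301 CPM (0.57 ± 0.095, adjusted p = 0.000225). Psme4, the single-chain cap PA200, was at 66.0, 47.6, 54.6 and 65.2 CPM in OX40minus and 63.3, 63.3, 48.3 and 55.8 CPM in OX40plus samples (−0.01 ± 0.12, 95% interval −0.28 to 0.25, adjusted p = 0.948). Psmf1, which encodes the inhibitor PI31, did not pass (0.16 ± 0.10, adjusted p = 0.245). Nor did Psmb11, the beta subunit of the thymoproteasome of cortical thymic epithelium, at about 1 CPM (−0.56 ± 0.44, adjusted p = 0.34).

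In spleens, none of the 38 proteasome genes passed the limma test between OX40plus and OX40minus Tregs. Over all genes, 4.39% rose and 3.6% fell. The median log2 fold change of the 38 was 0.12, against 0.01 over all genes, and the 25 constitutive 26S subunits had a median of 0.13 with a range of −0.05 to 0.21. At an unadjusted p under 0.05 there was 1 gene, Psmd1, at 93.6, 91.3 and 86.7 CPM in spleen OX40minus and 103, 108 and 100 CPM in spleen OX40plus samples (0.20 ± 0.088, adjusted p = 0.257). Psmd1 was also the 1 member without overlap in spleens, where 17.4% of all genes did not overlap in that direction. Refits by limma-voom, on log2(CPM + 1), with no filter, with other scalings, of the spleen groups alone, with the mouse as a block and without each sample in turn also gave 0 calls in spleens. The 95% intervals were wide: that of Psmb5 ran from −0.16 to 0.32 and that of Psmb6 from −0.20 to 0.42. The sample of mouse 3 was the lowest of the spleen OX40minus samples and the highest of the spleen OX40plus samples in the summed level of the 38 genes, at 3455 and 4573 CPM.

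The immunoproteasome genes also did not pass in spleens. Psmb9 was at 119, 130 and 106 CPM in spleen OX40minus and 124, 136 and 129 CPM in spleen OX40plus samples (0.13 ± 0.14, adjusted p = 0.805). Psmb10 was at 269, 219 and 177 CPM in spleen OX40minus and 180, 171 and 214 CPM in spleen OX40plus samples (−0.22 ± 0.13, adjusted p = 0.461). Psme2 was at 349, 278 and 225 CPM and at 282, 269 and 347 CPM (0.09 ± 0.15, adjusted p = 0.912). In these 3 genes the groups overlapped.

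The difference between the 2 OX40 comparisons was tested as an interaction, the log2 fold change in tumors minus that in spleens. It was positive for 36 of the 38 genes, with a median of 0.42 against −0.06 over all genes. By the limma test 3 passed as larger in tumors, where 4.53% of all genes did, and 1 passed in the other direction, where 6.38% did. These counts of 38 lie near the background. At an unadjusted p under 0.05 there were 27, a count with no share over all genes beside it, so nothing is read from it. Those that passed as larger were Psmd1 (0.53 ± 0.12, adjusted p = 0.00992), Psmd5 (0.58 ± 0.17, adjusted p = 0.0391) and Psma1 (0.51 ± 0.16, adjusted p = 0.0486, and 0.0769 with the mouse as a block). Psmd5 was at 51.8, 48.2 and 46.2 CPM in spleen OX40minus, 49.6, 44.0 and 54.8 CPM in spleen OX40plus, 66.7, 79.6, 90.3 and 91.8 CPM in tumor OX40minus and 108, 126, 132 and 129 CPM in tumor OX40plus samples. Psma1 was at 119, 100 and 94.2 CPM and 108, 108 and 115 CPM in the spleen groups, and at 232, 248, 272 and 246 CPM and 329, 348, 380 and 458 CPM in the tumor groups. In both genes the spleen groups overlapped and the tumor groups did not. Psmb9 was the gene in the other direction (−0.63 ± 0.19, adjusted p = 0.0394). For the other 34 genes a difference between tissues in the OX40 comparison was not shown by this limma test. The adjusted p of 8 of them lay from 0.0516 (Psmd6) to 0.058 (Psmg2). That count too has no share over all genes beside it, and nothing is read from it.

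The number of genes with a larger OX40 difference in tumors rested on single samples and on the scaling. It was between 1 and 18 when 1 of the 14 samples was left out, Psmb9 not counted: 18 with mouse 3 omitted from the spleen OX40plus group, 12 with mouse 3 omitted from spleen OX40minus, 11 with mouse 1 and 6 with mouse 2 omitted from tumor OX40plus. It was 1 without spleen OX40minus mouse 1 or 2, spleen OX40plus mouse 1 or 2, tumor OX40minus mouse 1 or 2, or tumor OX40plus mouse 3. The count over all 12509 genes tested moved as well, from 567 in the main fit. It was 635, 534, 672 and 560 in the order of the first omissions named, and 291 to 530 in the omissions that left 1 proteasome gene. Psmd1 was the gene that passed under every setting run, with log2 values of 0.46 to 0.58. Psmb9 no longer passed in 9 of 14 omissions (adjusted p of up to 0.0973) and with median-of-ratios scaling (adjusted p = 0.06), Psmd5 in 10 of 14 (up to 0.102) and Psma1 in 10 of 14 (up to 0.136).

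Between tissues, tumor Tregs had higher levels of the proteasome genes in both gates. In OX40plus Tregs 35 of 38 rose, 2 fell and 1 did not pass, where 30.3% of all genes rose and 34.2% fell, and the median log2 fold change was 1.28 against −0.13 over all genes. In OX40minus Tregs 30 rose, 1 fell and 7 did not pass, where 29.7% of all genes rose and 29.3% fell, and the median was 0.88 against −0.03. All 25 constitutive 26S subunits rose in both gates, with medians of 1.45 and 0.99. The 2 tissue comparisons share no samples with each other, but each shares samples with both OX40 comparisons. The gates of a tissue came from the same mice, and 1 fit gave both comparisons, so the 2 gates are no independent replication.

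Psmb2 rose most, at 94.1, 77.7 and 64.1 CPM in spleen OX40minus and 81.1, 79.5 and 99.1 CPM in spleen OX40plus samples, against the 237 to 462 CPM of the tumor samples. Its log2 fold change between tissues was 1.73 ± 0.13 in OX40minus Tregs (3.31-fold, adjusted p = 1.03e-08), and in OX40plus Tregs it was 4.55-fold higher in tumors (adjusted p = 4.85e-10). Psma3 was at 115, 108 and 98.6 CPM in spleen OX40minus, 109, 115 and 135 CPM in spleen OX40plus, 329, 326, 339 and 324 CPM in tumor OX40minus and 448, 479, 511 and 703 CPM in tumor OX40plus samples. No tumor sample of Psma3 overlapped a spleen sample, and its changes were 2.15 ± 0.13 and 1.62 ± 0.13. In the cap, Psmd12 rose most among the non-ATPase subunits, by 1.61 ± 0.11 and 1.14 ± 0.11. It was at 69.8, 64.1 and 57.3 CPM in spleen OX40minus, 65.6, 67.1 and 75.2 CPM in spleen OX40plus, 135, 130, 153 and 141 CPM in tumor OX40minus and 189, 194, 219 and 249 CPM in tumor OX40plus samples. Psmc1 rose most among the ATPases, by 1.48 ± 0.087 and 1.09 ± 0.087. It was at 113, 107 and 93.3 CPM in spleen OX40minus, 109, 110.3 and 127 CPM in spleen OX40plus, 219.9, 229, 215 and 222 CPM in tumor OX40minus and 303, 312, 321 and 349 CPM in tumor OX40plus samples. In both genes every tumor sample lay above every spleen sample. Among the chaperones the largest changes were those of Psmd5 in OX40plus (1.32 ± 0.12) and Psmd10 in OX40minus Tregs (0.92 ± 0.13). Psmd10 was at 32.5, 26.3 and 26.04 CPM in spleen OX40minus, 30.2, 29.2 and 33.9 CPM in spleen OX40plus, 53.1, 48.0, 61.5 and 51.5 CPM in tumor OX40minus and 58.1, 64.5, 59.99 and 75.4 CPM in tumor OX40plus samples, again with every tumor sample above every spleen sample. Psmd3, of the cap's lid, had the smallest change of a 26S subunit in OX40minus Tregs, 0.24 ± 0.094 (adjusted p = 0.0349), and lost its call with median-of-ratios scaling (0.0573), with the library size alone (0.0513) and in 5 of 14 omissions (up to 0.132), namely of spleen OX40minus mouse 2 or 3 and of tumor OX40minus mouse 1, 2 or 3.

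Of the immunoproteasome genes, Psme2 followed the core between tissues, with changes of 1.61 ± 0.14 in OX40plus and 1.23 ± 0.14 in OX40minus Tregs. Psmb10 rose in tumor OX40plus Tregs by 0.39 ± 0.12 (adjusted p = 0.00997, and 0.0535 without spleen OX40plus mouse 2) and did not pass in OX40minus Tregs (0.23 ± 0.12, adjusted p = 0.109, and 0.0102 without spleen OX40minus mouse 1). Psmb9 fell in tumor OX40plus Tregs by 0.41 on the log2 scale (SE 0.13, adjusted p = 0.012). Without tumor OX40plus mouse 1 the Psmb9 change was −0.26, with adjusted p = 0.0214. In OX40minus Tregs Psmb9 had a change of 0.22 ± 0.13 (adjusted p = 0.162, and 0.0361 without tumor OX40plus mouse 1). The constitutive catalytic subunits rose by 0.99 (Psmb5) and 1.10 (Psmb6) in OX40minus and by 1.45 and 1.59 in OX40plus Tregs, while Psmb9 and Psmb10 differed from their spleen levels by at most 0.41 on the log2 scale in either gate.

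Psme4 was the proteasome gene that fell in tumors in both gates. It was at 72.4, 87.4 and 83.3 CPM in spleen OX40minus samples, above the 47.6 to 66.0 CPM of tumor OX40minus samples. In the OX40plus gate it was at 77.6, 78.7 and 66.0 CPM in spleen samples, above the 48.3 to 63.3 CPM of tumor samples. The log2 fold change was −0.48 ± 0.13 in OX40minus (adjusted p = 0.00566) and −0.37 ± 0.13 in OX40plus Tregs (adjusted p = 0.0255). The OX40plus call was lost without spleen OX40plus mouse 1 or 2 or tumor OX40plus mouse 3, with adjusted p of up to 0.0908. Psme3 rose, by 0.99 ± 0.10 and 0.58 ± 0.10. Psmf1 rose in OX40plus Tregs (0.45 ± 0.11, adjusted p = 0.00234) and did not pass in OX40minus Tregs (0.26 ± 0.11, adjusted p = 0.0615, and 0.0142 with the mouse number as a block). Psmg2, Psmg3 and Psmg4 rose in OX40plus Tregs, by 1.22, 0.66 and 0.61, and did not pass in OX40minus Tregs, with 0.41, 0.33 and 0.00. Some of these passed when 1 sample was left out: Psmg2 without spleen OX40plus mouse 3 (adjusted p = 0.0459) or tumor OX40plus mouse 4 (0.0413), Psmg3 without spleen OX40minus mouse 1 (0.0336), and Psmf1 without spleen OX40minus mouse 1, tumor OX40minus mouse 4 or tumor OX40plus mouse 4 (0.0394 to 0.0482). The Psmg4 call in OX40plus Tregs was lost without spleen OX40plus mouse 1 (adjusted p = 0.058).

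**Figure D5:**
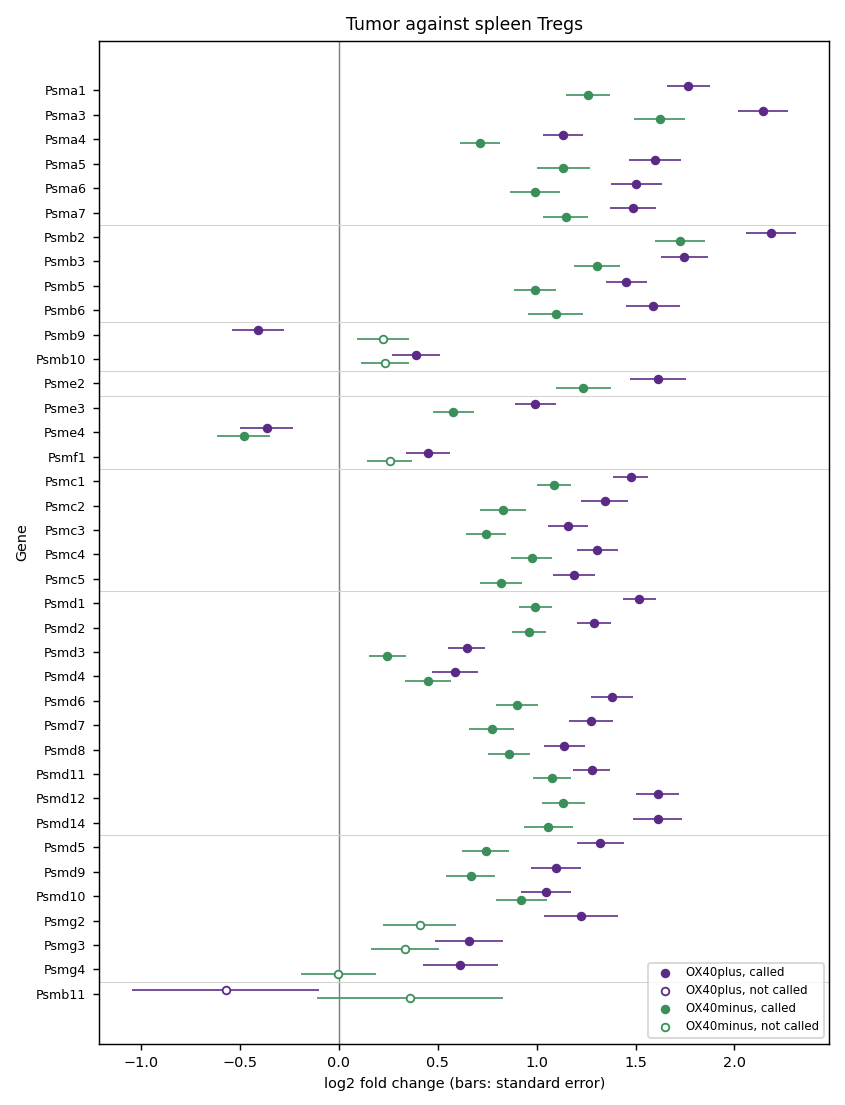
Log2 fold change of tumor against spleen Tregs for each of the 38 proteasome genes in the OX40plus (purple) and OX40minus (green) gates, with bars of 1 standard error and filled points for genes called at an adjusted p under 0.05. All 25 constitutive 26S subunits lie to the right in both gates, and Psme4 lies to the left in both.

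Other genes of the ubiquitin and proteasome pathway were called in both directions. Of 31 names on the list, which include aliases, 24 were in the table. In the tumor OX40 comparison 6 rose and 5 fell, with a median of 0.19. Over all genes 18.6% rose and 20% fell, so these counts of 24 lie near the background. Uchl5, a deubiquitinase that docks on the 19S cap, rose most by adjusted p (0.87 ± 0.11, adjusted p = 2.6e-05), and Adrm1, the cap subunit that holds it, rose by 0.28 ± 0.085 (adjusted p = 0.0145). Nfe2l1, which encodes NRF1, the transcription factor that raises proteasome gene expression when the proteasome is blocked, fell by 0.32 (SE 0.11, adjusted p = 0.0357). Nfe2l2 (NRF2) fell by 0.51. Between tissues 12 rose and 6 fell in OX40plus Tregs, where 30.3% and 34.2% of all genes did, and 12 rose and 7 fell in OX40minus Tregs, where 29.7% and 29.3% did. The changes were, in this order of gates, those of Uchl5 at 2.05 and 1.31, Nfe2l1 at −1.04 and −0.66, and Ubqln2, a shuttle for ubiquitinated proteins, at −2.78 and −2.50. In spleens Nfe2l2 fell by 0.65 (adjusted p = 0.00401) and the other 23 did not pass, where 3.6% of all genes fell and 4.39% rose. Uchl5 and Ubqln1 passed the interaction test, at 0.74 and 0.37, where 4.53% of all genes passed in that direction.

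The genes of MHC class I presentation, which uses the peptides, were also called in both directions. Of 12 on the list, 9 were in the table. In the tumor OX40 comparison 2 rose and 4 fell, where 18.6% and 20% of all genes did, so the count that rose lies near the background. Those that fell included Nlrc5, the transactivator of MHC class I genes (−1.0 ± 0.13, adjusted p = 2.96e-05), the interferon-pathway factor Irf1 (−0.48 ± 0.095) and the class I heavy chain H2-K1 (−0.26 ± 0.09, adjusted p = 0.0341). Erap1, which trims peptides in the endoplasmic reticulum, and Pdia3, of the peptide-loading complex, rose by 0.47 and 0.25. Neither B2m (−0.04) nor Tapbp (−0.27) passed. Between tissues, 7 rose and 1 fell in OX40minus and 5 rose and 1 fell in OX40plus Tregs, the one that fell being Nlrc5 both times (−0.80 and −1.66), where 29.7% and 29.3% (OX40minus) and 30.3% and 34.2% (OX40plus) of all genes rose and fell. None of the 9 passed in spleens, where 4.39% of all genes rose and 3.6% fell, shares under which fewer than 1 of 9 genes would be called.

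Proliferation genes moved with the proteasome genes in tumors and moved in spleens also. In the OX40 comparisons 18.6% of all genes rose in tumors and 4.39% in spleens. All 10 mitosis genes rose in the tumor OX40 comparison, with a median of 1.30, and 8 of 10 rose in the spleen OX40 comparison, with a median of 0.82. Their summed level was 550 to 733 CPM in spleen OX40minus, 807 to 1460 in spleen OX40plus, 950 to 1191 in tumor OX40minus and 2349 to 2619 in tumor OX40plus samples. Spleen OX40plus and tumor OX40minus samples thus overlapped in this sum, in which Mki67 was at 236 to 559 and 125 to 187 CPM. Lower in spleen OX40plus without overlap were Ccnb1 (36.9 to 60.3 against 110 to 132 CPM), Cdk1, Aurkb and Cdc20. Bub1, Kif11, Plk1, Top2a and Tpx2 overlapped. The constitutive 26S subunits of these groups summed to 2840 to 3407 and 5415 to 5811 CPM without overlap. Between tissues 9 of 10 mitosis genes rose in each gate, and 1 fell in OX40minus Tregs. Of all genes 30.3% rose in OX40plus Tregs, and 29.7% rose and 29.3% fell in OX40minus Tregs. The part of proliferation in the tumor OX40 and tissue differences was not tested. Markers of some other cell types were lower in OX40plus Tregs also, in comparisons where 20% of all genes fell in tumors and 3.6% in spleens. Of the macrophage markers 8 of 9 fell in tumors and 8 of 9 in spleens. Of the dendritic cell markers 3 of 5 fell in tumors, where the summed level was 128 to 190 CPM in OX40minus and 36.8 to 65.3 CPM in OX40plus samples without overlap, and 0 of 5 passed in spleens. Of the NK cell markers 4 of 5 fell in tumors and 0 of 5 passed in spleens. Of the B cell markers 4 of 4, and of the melanoma markers 5 of 5, did not pass in either tissue. The part of these markers in the tumor OX40 differences, the falls of Psmb9 and of MHC class I genes included, was not tested. Psmc3ip, the recombination cofactor, rose in the tumor OX40 comparison from 7.77, 9.96, 8.86 and 9.39 CPM to 21.6, 28.4, 27.5 and 30.2 CPM (1.57 ± 0.19, adjusted p = 1.12e-05). In spleens it rose from 3.99, 3.73 and 3.04 CPM to 5.41, 7.17 and 7.65 CPM (0.90 ± 0.22, adjusted p = 0.0165). That spleen call was lost with limma-voom (0.0824) and without spleen OX40minus mouse 3 or spleen OX40plus mouse 2 or 3 (up to 0.0855).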

How the data were processed

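RNA was measured by sequencing in 28 libraries from 14 samples (mouse and gate). The deposited table, named for counts, holds log2 CPM in the form of limma's voom transformation, with 0.5 added to each count. This was read from the values: 451 to 1322 genes of a library share its lowest value, from which the library's effective size follows. Undoing the transformation with that size returned estimated counts, 46.6% to 51.2% of them whole within 0.01 (0.893% to 1.29% with the size raised by 10%). Per the submitters' processing notes, the authors used bcl2fastq 2.19, kallisto and limma with mm10. Not given in the sources used here is how genes were summarised, scaled and filtered, or whether strand was used.

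The 2 libraries of a mouse and gate differed by about the sampling noise (chi-square per gene, median over genes of 20 or more counts, 0.495 to 0.578 over 14 pairs, 0.455 by sampling alone, 1.43 to 12.8 between mice) and were averaged. CPM was computed from the estimated counts. limma 3.58.1 (R 4.3.3) was fitted to the mean log2 CPM with 1 term per group, no block, and a mean-variance trend in the empirical Bayes step. Genes were tested that reached 0.382 CPM in 3 or more samples and 15 estimated counts over all samples, and the fit was checked on simulated data. Errors beside log2 fold changes are standard errors, and fold changes understate changes of genes near 0. Ratios were tested by exact two-sided permutation (scipy 1.17.1). Alternatives were a block for the mouse, log2(CPM + 1), no filter, median-of-ratios scaling, the library size alone, limma-voom, each tissue alone, and leaving out each sample.

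The titles give a mouse number in each tissue, which pairs the gates of a tissue. Same-numbered samples of a tissue had correlations of their deviations between −0.162 and 0.112. Whether numbers match across tissues is not stated. Of the ratios of Psmb8, Psmb9 and Psmb10 to Psmb5, Psmb6 and Psmb7, the table allowed Psmb9 to Psmb6. The members and lists were chosen with earlier results of these data known. Named with values in each sample were the immunoproteasome and catalytic genes and, in each class and comparison, the called gene with the largest change in each direction. Psmd3, Psmd4, Psmd8, Psmd9, Psmd14, Psmf1, Psmb11, Psmg3, Psmg4 and Psmc3ip were named after their values were seen. Some items of the lists, and 1 of the motifs searched, are not reported here.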

Additional observations from a re-analysis of the deposited data

Results flagged for a closer look

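Among the 39 genes in the 2 tumor groups, 78 groups of 4 samples were checked for a sample far from the others, and 3 were found, where chance gives about 1 in 20. Psmb9 in tumor OX40plus Tregs was at 71.1 CPM in mouse 1 and at 106 to 111 CPM in the other mice. Psmd9, a 19S assembly chaperone, was at 56.2 CPM in tumor OX40minus mouse 3 and at 46.8 to 47.8 CPM in the others. Psmg3, an alpha ring chaperone, was at 44.3 CPM in tumor OX40plus mouse 4 and at 31.7 to 33.7 CPM in the others.

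The OX40 difference was larger in tumors than in spleens by the limma interaction test for Psma1 (log2 difference 0.51), Psmd1 (0.53) and Psmd5 (0.58), and lower for Psmb9 (−0.63). For Psma1 a fit with mouse blocks gave an adjusted p of 0.0769, which ends its call. Its call also ended with no filter, the library size alone and limma-voom. That of Psmd5 ended with the library size alone and limma-voom, and that of Psmb9 with median-of-ratios scaling. Leaving out 1 of the 14 samples ended the call of Psma1 in 10, of Psmd5 in 10 and of Psmb9 in 9 cases, and that of Psmd1 in 0.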

How the results depend on the processing

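No called result changed direction under an alternative run. Of the calls, 29 of 32 in the tumor OX40 comparison, 34 of 37 between tissues in OX40plus, 30 of 31 in OX40minus and 1 of 4 in the interaction passed under every alternative run. The genes with a larger OX40 difference in tumors numbered 3, and 10 with log2(CPM + 1), 11 with median-of-ratios scaling, 1 with the library size alone, 1 with limma-voom and 1 to 18 leaving out a sample. Over all 12509 genes tested these counts were 567, 705, 703, 468, 532 and 291 to 672. The gene with a smaller OX40 difference in tumors numbered 1, and 0 with median-of-ratios scaling and 0 to 1 leaving out a sample. Over all genes these counts were 798, 705 and 475 to 956. Genes lower in tumor OX40plus than in spleen OX40plus Tregs numbered 1 to 2 leaving out a sample, and 3809 to 4337 over all genes. Why these moved was not tested. With the replicate block, the genes higher in tumor OX40plus Tregs numbered 28, and the interaction had 2 higher and 1 lower. Over all genes these counts with the block were 2115, 355 and 605. The tumor difference in the log2 ratio to Psmb6 with the replicate block was −1.10 for Psmb9 and −0.67 for Psmb10, each with an exact permutation p of 0.125, the smallest 4 pairs can give. Leaving out a sample, it ranged from −1.18 to −0.99 and from −0.70 to −0.62. The block changed the calls of Psmd8, Psmg3 and Psmg4 (tumor OX40), Psma1 (interaction) and Psmf1 (between tissues), and no other proteasome gene's. Between tissues the block joined equal mouse numbers of tumor and spleen, and whether these are the same animals is not stated. The median of all genes in the OX40plus tissue comparison was −0.13, and −0.24 with the library size alone. The planned ratios with Psmb8 or Psmb7 were not run. The small number of mice limits precision, and no spleen permutation test could reach a p under 0.1.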
